A study of Mus musculus with 72 samples.

Results

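The messenger RNAs of 10 genes of the endoplasmic reticulum (ER) were followed through the nucleus, the cytosol and the membrane fraction of mouse embryonic stem cells (mESCs). The genes were taken by symbol from a list and all 10 were found among the 51826 genes of the count files. 7 of them encode chaperones and folding enzymes of the ER, namely *Hspa5*, *Hsp90b1*, *Calr*, *Canx*, *Pdia3*, *Pdia4* and *Pdia6*. The other 3, *Xbp1*, *Herpud1* and *Dnajb9*, are best known as part of the unfolded protein response (UPR). The list rests on symbols and not on a measured value, but it was chosen with earlier results of these data known.

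Proteins that enter the secretory pathway are made on ribosomes at the ER membrane and fold in the ER lumen. HSPA5 (BiP) is the Hsp70 and HSP90B1 (Grp94) the Hsp90 of the lumen. Calreticulin (CALR) is a soluble and calnexin (CANX) a membrane-bound lectin, and both hold newly made glycoproteins together with PDIA3, which forms disulfide bonds in them. PDIA4 and PDIA6 are further protein disulfide isomerases. When unfolded proteins accumulate, the sensors IRE1, PERK and ATF6 start the UPR. IRE1 cuts a short intron out of *Xbp1* mRNA at the ER membrane, after which a strong transcription factor is made. HERPUD1 sits in the ER membrane and serves ER-associated degradation, and DNAJB9 (ERdj4) is a cochaperone of HSPA5. Spliced and unspliced *Xbp1* cannot be told apart in counts per gene.

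All libraries came from the line E14TG2a, grown with 2 kinase inhibitors and leukemia inhibitory factor in a medium that also held serum, and the labels name no genetic change and no ER stressor. Cells were labeled with 4-thiouridine (4sU), a uridine analog. After alkylation it is sequenced as C in place of T, and the count of such T2C bases is a measure of newly made RNA. Cells were collected in cycloheximide, which holds ribosomes on mRNA, and a part was kept as whole cells. Digitonin released the cytosol from the rest, a stronger detergent released the membrane fraction, and the pellet was the nucleus. There were 72 libraries of poly(A) RNA, 18 of each of these 4 kinds. The replicates, described as independently passaged, were handled in pairs. Labeling lasted 15, 20 or 30 min in replicates 1 and 2. It lasted 20, 40, 60 or 120 min in replicates 3 and 4 and either 60 or 120 min in the last pair, 5 and 6. The labels give 500 µM 4sU up to 40 min and 100 µM at 60 and 120 min.

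The methods of the study point to the higher dose for all libraries of the middle pair. The conversion rate at 60 min was 5.83 to 8.29% in replicates 3 and 4 and 2.38 to 3.99% in replicates 5 and 6. Labeling times were therefore tested only within a pair of replicates, and where values of different pairs stand side by side, pair, dose and time cannot be told apart. The 120 min libraries of replicates 3 and 4 were left out of the comparisons of fractions. The study did the same. This left 64 libraries, 16 of each kind. Between 13185351 and 52975732 reads were counted per library. In whole cells of replicate 6 the median gene had a share of new mRNA of 0.378 at 60 min and 0.175 at 120 min, the reverse of replicate 5 (0.220 and 0.391), so that shares in whole cells were used only to find similar genes. The summed level of 8 stem cell markers, among them *Pou5f1* and *Nanog*, was 3814 to 8444 counts scaled by library size (CPM). The summed level of 10 markers of other cells was 13.4 to 32.3 CPM, with 6 of the 10 under 1 CPM by their median.

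The 10 genes lie on 6 chromosomes of GRCm38 (Gencode M21). *Hspa5* spans chr2:34771970-34777547 on the + strand and *Pdia3* chr2:121413775-121438687 on the + strand. *Hsp90b1* lies at chr10:86690209-86705509 (- strand), *Calr* at chr8:84841850-84846934 (- strand), *Canx* at chr11:50293961-50325673 (- strand), *Pdia4* at chr6:47796141-47813430 (- strand) and *Pdia6* at chr12:17266545-17284770 (+ strand). *Xbp1* lies at chr11:5520659-5525893 (+ strand), *Herpud1* at chr8:94386438-94395377 (+ strand) and *Dnajb9* at chr12:44205559-44210326 (- strand). *Dnajb9*, *Calr*, *Xbp1* and *Hspa5* are short genes of 4.768 to 5.578 kb, while *Canx*, the longest, covers 31.713 kb.

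Promoters are shown because members of this group are known to share a control sequence, the ER stress response element. RefSeq promoters of GRCm38.p6, from 250 bases before to 50 after the gene start, were found for all 10 genes. They were searched on both strands for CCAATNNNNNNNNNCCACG (the ER stress response element), for ATTGGNCCACG (element II) and for TGACGTGG (the unfolded protein response element). The last holds CCACG on its other strand and can thus overlap the first. The first element stood in 5 of the 10 promoters (*Hspa5*, *Hsp90b1*, *Calr*, *Canx* and *Pdia6*) and in 0.119% of all 32851 promoters. The second stood in the promoter of *Herpud1* and in 0.0365% of all promoters. The third stood in none of the 10 and in 0.676% of all. The lines give each match with 5 bases on either side, and capitals mark the fixed letters of the element.
*Hspa5*, chr2:34772020-34772048, + strand: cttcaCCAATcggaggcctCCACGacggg
*Hsp90b1*, chr10:86705633-86705661, - strand: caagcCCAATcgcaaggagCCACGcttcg
*Hsp90b1*, chr10:86705528-86705556, + strand: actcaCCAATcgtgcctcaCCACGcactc
*Calr*, chr8:84847070-84847098, + strand: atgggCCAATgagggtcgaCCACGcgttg
*Canx*, chr11:50325795-50325823, - strand: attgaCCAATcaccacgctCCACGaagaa
*Pdia6*, chr12:17266486-17266514, + strand: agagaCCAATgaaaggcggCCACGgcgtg
*Herpud1*, chr8:94386372-94386392, + strand: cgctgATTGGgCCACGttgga
They lay from 52 bases (*Herpud1*) to 212 bases (*Hsp90b1*) before the RefSeq start, which can differ from the Gencode start, and *Hsp90b1* held the element 2 times, once on each strand. A match is a description of the sequence and not a test of binding.

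Levels were first compared between genes, as CPM divided by the exon length in kb, with 1 value per replicate and fraction. In whole cells the chaperones and folding enzymes were among the most abundant mRNAs, and the UPR genes were lower. *Calr* was highest, at 302 to 543 with a median of 404 (n = 6), and *Pdia3* (222 to 502, median 356), *Hspa5* (186 to 443, median 341), *Hsp90b1* (156 to 436, median 308) and *Canx* (200 to 446, median 289.6) followed with overlapping ranges. Of 13520 genes over 1 CPM in whole cells, *Calr* ranked 75 and *Pdia4*, the lowest of the 7, ranked 314. *Pdia6* (median 143) and *Pdia4* (median 126) overlapped each other as well. *Xbp1* had a median of 40.3 (rank 1276) and lay below every value of *Pdia4*, and *Herpud1* (median 13.2) and *Dnajb9* (median 10.3) lay below every value of *Xbp1* but overlapped each other. Fewer cells that express a gene and less RNA per cell cannot be told apart in such bulk libraries.

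**Figure D1:**
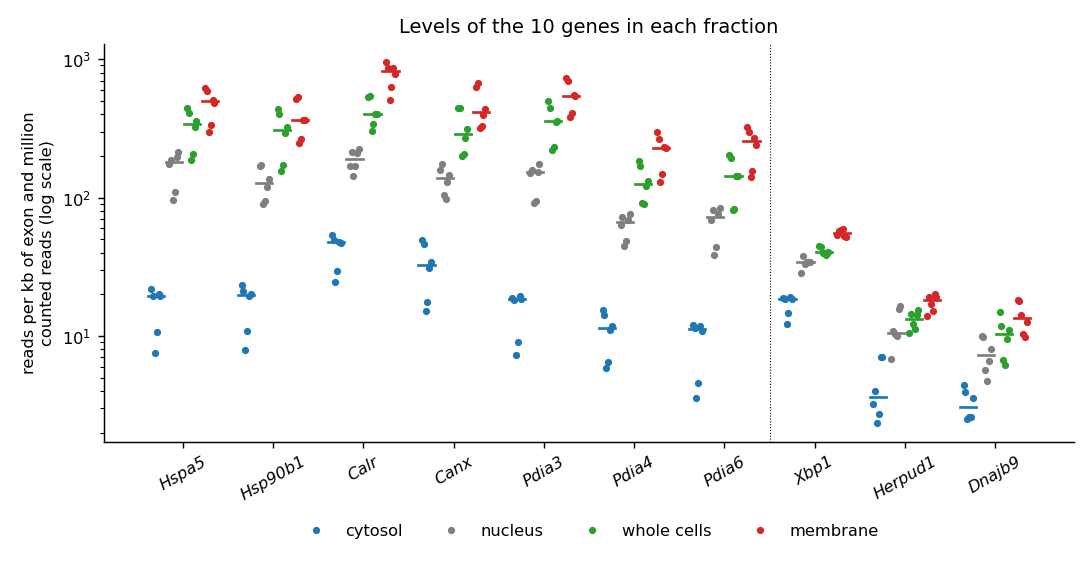
Level of each of the 10 genes (CPM per kb of exon, log scale) in cytosol, nucleus, whole cells and membrane fraction, with 1 point per replicate (n = 6) and a bar at the median. Every membrane value lies above every cytosol value of the same gene, and the distance is widest for the chaperones and folding enzymes left of the dotted line.

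Relative to the other mRNAs of each fraction, all 10 mRNAs were far more abundant in the membrane fraction than in the cytosol. Such levels are not amounts per cell. *Hspa5* ranged from 298 to 616 in the membrane fraction (median 498) and from 7.57 to 22.0 in the cytosol (median 19.4), a 25.7-fold difference of the medians. *Pdia3* had the widest difference, 29.5-fold, with 380 to 732 in the membrane fraction and 7.25 to 19.5 in the cytosol. *Canx* had the narrowest of the 7, 12.6-fold, with 320 to 671 and 15.1 to 49.7. The membrane values of each chaperone and folding enzyme thus lay above its cytosol values with no overlap, as did those of 17.2% of 13511 genes over 1 CPM (no test). The UPR genes also did not overlap, but by less. *Xbp1* ranged from 52.1 to 59.3 in the membrane fraction and from 12.2 to 19.3 in the cytosol (3.00-fold), *Herpud1* from 13.9 to 20.0 and from 2.34 to 7.12 (5.04-fold), and *Dnajb9* from 9.81 to 18.3 and from 2.50 to 4.46 (4.36-fold).

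The comparison of membrane fraction and cytosol asked in which fraction each mRNA is enriched relative to others. Its log2 ratios rest on another scaling of the libraries (TMM) than the levels above, and thus differ from the ratios of the medians. In edgeR's quasi-likelihood test, with Benjamini-Hochberg adjustment over 19040 genes and calls at an adjusted p under 0.05 and a log2 ratio over 1, all 10 were higher in the membrane fraction, against 19.3% of all genes tested. The median gene had a log2 ratio of -0.14 (membrane over cytosol). The log2 ratio was 5.58 (standard error (SE) 0.32, adjusted p = 1.78e-13) for *Pdia3*, 5.24 (SE 0.33, adjusted p = 9.87e-13) for *Hspa5* and 5.14 (SE 0.37, adjusted p = 9.05e-12) for *Pdia6*. It was 4.26 to 4.89 for the other 4 chaperones and folding enzymes. Of 19040 genes, *Pdia3* stood at rank 29, *Hspa5* at 43 and *Pdia6* at 46 from the highest ratio. The UPR genes stood further down, with 2.46 for *Dnajb9* (SE 0.26, rank 2234), 2.33 for *Herpud1* (SE 0.24) and 2.05 for *Xbp1* (SE 0.11, adjusted p = 4.44e-14, rank 2704). Each of the 10 was called under every alternative tried. Within each pair of replicates, the log2 ratio of all 10 genes was above 0, for *Hspa5* 4.87 in replicates 1 and 2, 5.14 in 3 and 4 and 4.65 in 5 and 6.

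Other genes of the pathway were read beside the members. All 22 further ER folding genes were higher in the membrane fraction (median log2 ratio 3.86), from *Ero1lb*, an ER oxidase, at 2.22 and *Fkbp2*, a prolyl isomerase, at 2.87 to *Hyou1*, a large ER chaperone, at 4.41 and *P4hb*, a disulfide isomerase, at 4.66. Of 13 UPR signaling genes 9 were higher. These included the sensors *Eif2ak3* (PERK; 3.59) and *Atf6* (3.29), while the transcription factors *Atf4* (-0.70, adjusted p = 3.52e-04) and *Ddit3* (-0.59, adjusted p = 0.269), which have no ER segment, were not called. Of 17 genes of ER-associated degradation 12 were higher, with *Sel1l* (4.42) and the lectin *Erlec1* (3.96) at the top. *Ufd1l* (-0.54) and *Nploc4* (-0.52), cytosolic partners of the p97 ATPase, were at the bottom and not called. The closest cytosolic relatives of the members were a contrast. *Hspa8*, the cytosolic Hsp70, had a log2 ratio of -0.14 (SE 0.18, adjusted p = 0.576), *Hsp90aa1* of -0.39 (SE 0.29), *Hsp90ab1* of -0.14 (SE 0.20) and *Dnajb1* of -0.32 (SE 0.18). None of the 16 cytosolic chaperones and cochaperones was called, and they ranged from -0.88 (*Bag1*) and -0.77 (*Dnajb6*) to -0.04 (*Hspa1b*) and 0.29 (*Hspa1a*).

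**Figure D2:**
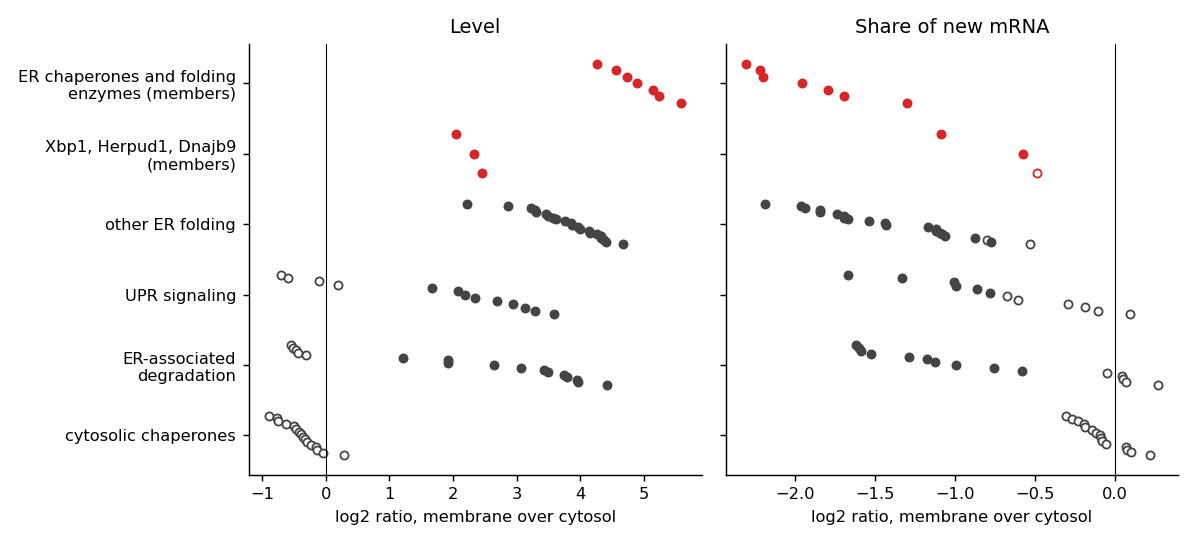
Log2 ratio of membrane fraction over cytosol for the level (left) and for the share of new mRNA (right), with 1 point per gene in rows for the members (red) and for lists of related genes (grey). Filled points were called in edgeR's test. The members and the other ER folding genes have level ratios above 2 and share ratios below 0, and the cytosolic chaperones lie around 0 in both.

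The nucleus also held more of the members than the cytosol, relative to other mRNAs. *Hspa5* ranged from 96.6 to 215 in the nucleus (median 181) and was 9.35-fold higher there than in the cytosol by the medians, *Calr* (144 to 226, median 190.1) 3.99-fold and *Dnajb9* (4.72 to 10.0, median 7.35) 2.38-fold. Nuclear and cytosol values of *Herpud1* overlapped (6.86 to 16.4 and 2.34 to 7.12), while those of the other 9 did not, against 29.3% of 13511 genes whose nuclear values lay above the cytosol values without overlap (no test). Within each replicate the nuclear value of *Herpud1* was above its cytosol value. In the edgeR fit 8 of the 10 were higher in the nucleus, against 24.3% of 19040 genes. All 7 chaperones and folding enzymes were among the 8, with log2 ratios (nucleus over cytosol) from 1.75 for *Canx* (SE 0.29, adjusted p = 1.52e-05) to 2.99 for *Hspa5* (SE 0.30, adjusted p = 1.26e-08). *Herpud1* was called at 1.09 (SE 0.23, adjusted p = 2.58e-04), while *Xbp1* at 0.64 (SE 0.11) and *Dnajb9* at 0.85 (SE 0.25) stayed under the limit of 1. *Dnajb9* was called at 1.01 to 1.21 under 6 alternatives and *Xbp1* at 1.01 under 1, without the filter on low counts. Of the 16 cytosolic chaperones, 0 were higher and 4 lower.

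Levels in the nucleus lay between those of cytosol and membrane fraction. The membrane level was above the nuclear level without overlap in 8 of the 10 genes, against 9.97% of 13511 genes over 1 CPM (no test), by 2.75-fold (*Hspa5*) to 4.29-fold (*Calr*) for the chaperones and folding enzymes and 1.62-fold for *Xbp1*. *Herpud1* (1.72-fold) and *Dnajb9* (1.83-fold) overlapped, but within each replicate the membrane value of both was above the nuclear value. mRNAs encoded in mitochondria, which the detergent step should leave in the membrane fraction, made up 8.34 to 16.9% of counts there, 0.543 to 1.20% in the nucleus and 0.0286 to 0.196% in the cytosol. By the medians they were 10.7-fold more abundant in the membrane fraction than in the nucleus, a larger ratio than that of any of the 10 genes. What part ER-bound mRNA carried over with nuclei has in the nuclear levels was not tested.

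The share of new mRNA is the T2C count over the T count of the exons, divided by the conversion rate. No value of unlabeled cells was subtracted, so that the lowest shares include sequencing mismatches, and errors of the rate can lift a share above 1. The study corrected for the later labeling of exons far from the 3' end, and the shares here were not corrected. Shares of long and short genes at short times are thus not fully comparable. *Hspa5* had a high share in the cytosol. In replicates 1 and 2 its cytosolic share was 0.0970 and 0.0673 at 15 min, 0.224 and 0.230 at 20 min and 0.393 and 0.376 at 30 min, when the median gene was at 0.0306 and 0.0293. In the membrane fraction of the same cultures it was 0.0144 and 0.0136 at 15 min, 0.0186 and 0.0213 at 20 min and 0.0299 and 0.0355 at 30 min. The share in the cytosol was thus over 10 times that in the membrane fraction at 30 min. In the nucleus it was 0.107 and 0.0457 at 15 min and 0.153 and 0.176 at 30 min, when it lay between both. In replicates 5 and 6 at 120 min the shares were 0.534 and 0.550 in the cytosol, 0.381 and 0.356 in the nucleus and 0.332 and 0.295 in the membrane fraction.

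*Pdia4* and *Pdia3* had lower values, and the cytosol was again highest and the membrane fraction lowest at the times given here. *Pdia4* reached 0.113 and 0.132 in the cytosol at 30 min, 0.0540 and 0.0897 in the nucleus and 0.00915 and 0.0117 in the membrane fraction. At 60 min in replicates 5 and 6, *Pdia3* had 0.256 and 0.269 in the cytosol, 0.0957 and 0.0720 in the nucleus and 0.0703 and 0.0629 in the membrane fraction. Its membrane share stayed the lowest at 120 min, at 0.139 and 0.128 against 0.317 and 0.338 in the cytosol. In the membrane fraction of replicates 1 and 2 some of these shares were about the same at 15 and 30 min. *Calr* was at 0.0267 and 0.0285 at 15 min and at 0.0274 and 0.0260 at 30 min, and *Pdia6* at 0.00938 and 0.00976 and at 0.00831 and 0.00714. *Pdia6* rested on as few as 10 T2C counts in a cytosol library and 162 in a membrane library, and *Pdia4* on as few as 8 and 105.

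Averaged over replicates and relative to the median gene, *Xbp1*, *Herpud1* and *Dnajb9* had higher shares than the chaperones and folding enzymes in the nucleus and the membrane fraction. In the cytosol *Hspa5* (log2 2.33) lay above *Xbp1* (1.67) on this scale. *Dnajb9* had a nuclear share of 0.174 and 0.0868 at 15 min and 0.363 and 0.333 at 30 min in replicates 1 and 2. In the membrane fraction it was 0.0483 and 0.0281 and then 0.231 and 0.241 at the same times. In replicates 5 and 6 it was at 0.848 and 0.775 in the membrane fraction at 60 min and at 1.11 and 1.03 at 120 min. *Herpud1* went from 0.584 and 0.597 at 60 min to 0.991 and 0.981 at 120 min in the membrane fraction of replicates 5 and 6. *Xbp1* was lower, at 0.389 and 0.337 at 60 min and 0.810 and 0.707 at 120 min, still more than the median gene (0.320 and 0.288). *Herpud1* and *Dnajb9* are rare in the cytosol, and their shares there rested on as few as 9 and 8 T2C counts.

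**Figure D3:**
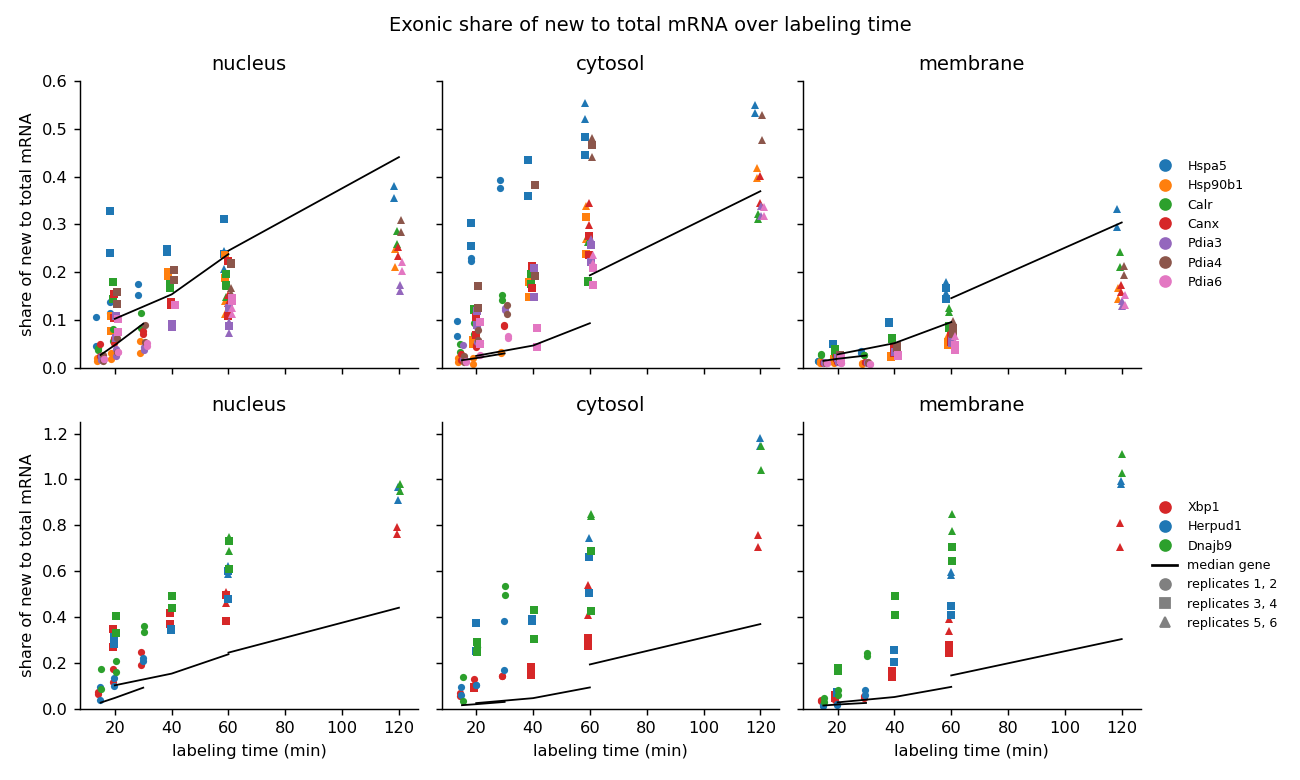
Exonic share of new to total mRNA over labeling time (min) in nucleus, cytosol and membrane fraction, for the 7 chaperones and folding enzymes (upper row) and for Xbp1, Herpud1 and Dnajb9 (lower row, other scale). Points are libraries, shapes mark pairs of replicates, and black lines the median gene of each pair. Each chaperone and folding enzyme lies above the median gene in at least 11 of 16 cytosol libraries, and 5 of the 7 lie below it in all 16 membrane libraries. Xbp1 and Dnajb9 lie above it in all libraries of all 3 fractions.

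Across the 48 libraries of the 3 fractions, 9 of the 10 genes had a lower share in the membrane fraction than in the cytosol, against 12.0% of 11646 genes (edgeR's quasi-likelihood test with labeling condition as a term, adjusted p under 0.05 and a log2 ratio beyond 0.5). The median gene had a log2 ratio of -0.01. This test took each library as a unit, so that the times of a replicate and the fractions of a culture counted as independent. Its p-values can thus overstate the evidence from 6 replicates. The ratio was lowest for *Pdia4* at -2.30 (SE 0.17, adjusted p = 1.91e-20), *Pdia3* at -2.22 (SE 0.15, adjusted p = 3.84e-22) and *Hspa5* at -2.20 (SE 0.17, adjusted p = 1.91e-20), at ranks 8, 13 and 15 from the lowest of 11646. *Canx* followed at -1.96 (SE 0.15), *Pdia6* at -1.79 (SE 0.17), *Hsp90b1* at -1.69 (SE 0.18) and *Calr* at -1.30 (SE 0.14). The membrane share was below the cytosolic share in 16 of 16 cultures for 6 of these 7 and in 15 of 16 for *Hsp90b1*. The ratio differed between pairs. For *Hspa5* the mean log2 ratio was -3.20 in replicates 1 and 2, -2.05 in 3 and 4 and -1.24 in 5 and 6, pairs that differ in labeling time.

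Among the UPR genes *Herpud1* was lower in the membrane fraction by a log2 ratio of -1.09 (SE 0.19, adjusted p = 1.68e-06; 16 of 16 cultures) and *Xbp1* by -0.58 (SE 0.15, adjusted p = 0.00252; 12 of 16 cultures). The value of *Dnajb9* was -0.49 (SE 0.17, adjusted p = 0.0309; 12 of 16 cultures), just under the limit of 0.5. *Dnajb9* was called when any one of replicates 3 to 6 was left out (-0.62 to -0.55). The call of *Xbp1* was lost without replicate 1 (-0.44, adjusted p = 0.0847), without replicate 2 (-0.45, adjusted p = 0.0694) and in a limma fit of mean shares with the replicate as a block (-0.57, adjusted p = 0.170). In libraries of 40 min and longer alone, *Xbp1* was at -0.15, *Herpud1* at -0.41 and *Dnajb9* at 0.11, and none of the 3 was called. All 7 chaperones and folding enzymes were called in that subset too.

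The other ER genes had the same direction. Of 22 further ER folding genes 20 were lower in the membrane fraction (median log2 ratio -1.43), with *Calu*, an ER calcium-binding protein, at -2.18 and *Hspa13*, an Hsp70-like ATPase, at -1.96. *Ppib*, a cyclophilin, was called at -0.77, while *Sil1*, an exchange factor of HSPA5, at -0.53 (adjusted p = 0.475) and *Ero1lb* at -0.80 were not. *Ero1lb* is named here after its value was seen. Of 15 degradation genes tested 10 were lower, with *Derl1* at -1.62 and *Derl2* at -1.60. The range ended at 0.07 (*Ube2g2*) and 0.27 (*Nploc4*). Of 12 UPR signaling genes 6 were lower, from *Eif2ak3* at -1.67 and *Atf6* at -1.33 to *Ppp1r15a* at -0.11 and *Ddit3* at 0.09, both not called. Of 15 cytosolic chaperones 0 were called, with *Hsp90aa1* (-0.30) and *Hspa1b* (-0.26) lowest and *Dnajc7* (0.10) and *St13* (0.22) highest. *Hspa8* was at -0.19 (SE 0.12), *Hsp90ab1* at -0.19 (SE 0.12) and *Dnajb1* at -0.14 (SE 0.15).

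mRNA is made in the nucleus, and most genes had a larger share of new mRNA there than in the cytosol. This held for 77.8% of 11646 genes, and 1.31% had a smaller share in the nucleus. The median log2 ratio (nucleus over cytosol) was 1.05. Of the 10 members, only *Xbp1* was higher in the nucleus (0.64, SE 0.15, adjusted p = 1.16e-04; 14 of 16 cultures), and this call was lost without replicate 3 (0.47). *Pdia3* (-1.07, SE 0.15, adjusted p = 7.02e-10; lower in 16 of 16 cultures), *Pdia4* (-0.68, SE 0.17; 13 of 16 cultures) and *Hspa5* (-0.67, SE 0.16, adjusted p = 9.47e-05; 14 of 16 cultures) were lower. *Pdia3* stood at rank 16 from the lowest of 11646 genes. The other 6 had values from -0.19 (*Calr*, SE 0.13) to -0.0034 (*Dnajb9*, SE 0.17) and were not called. Pairs of replicates, which differ in labeling time, could lie on opposite sides of 0. For *Hsp90b1* the mean log2 ratio was 0.48 in replicates 1 and 2, 0.21 in 3 and 4 and -1.04 in 5 and 6. In the same order it was 0.25, -0.22 and -0.89 for *Canx* and -0.08, 0.34 and -0.78 for *Pdia6*. In libraries of 40 min and longer *Canx* was called too, at -0.72. Of 15 cytosolic chaperones all 15 were higher in the nucleus (median 1.12), among them *Hspa8* at 0.99 and *Hsp90ab1* at 0.94, while 3 of 22 other ER folding genes were higher, 3 were lower and 16 were not called. Of 15 degradation genes 8 were higher and 0 lower, and of 12 UPR signaling genes 7 were higher and 1, *Atf6*, lower.

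The content of unspliced RNA differed between fractions. Introns held 18.9% of T counts of *Pdia4* in the cytosol (median over libraries) against 17.8% in the nucleus and 1.11% in the membrane fraction, and 10.5% of those of *Pdia3* against 6.07% and 0.550%. For *Hspa5* the median was 2.07% in the cytosol and 2.13% in the nucleus, and for *Xbp1* it was 4.45% and 13.3%. *Hsp90b1* (7.02% and 13.8%), *Herpud1* (5.55% and 13.1%) and *Dnajb9* (2.40% and 7.39%) also had less in the cytosol than in the nucleus. T counts of introns are not part of the exonic share, but exons of unspliced RNA are. The part of such RNA in the shares was not tested.

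The membrane share was also below the nuclear share, as it was for most genes. The median gene had a log2 ratio (membrane over nucleus, median over cultures) of -1.03, and 31.7% of 11646 genes were lower in all 16 cultures (no test). The share was lower in 16 of 16 cultures for each of the 7 chaperones and folding enzymes, with median log2 ratios from -1.83 (*Canx*, rank 836 from the lowest) to -1.11 (*Calr*, rank 5149). It was lower in 15 of 16 cultures for *Xbp1*, 13 for *Herpud1* and 11 for *Dnajb9*. In replicates 5 and 6, after 60 and 120 min, the mean ratio was -0.82 to -0.32 for the 7, -0.23 for *Xbp1*, 0.02 for *Herpud1* and 0.16 for *Dnajb9*, against -0.47 for the median gene.

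Shares were then set against the median gene of the same library, which removes differences in dose, time and conversion rate that all genes share. A relative share can still change with labeling time, and the replicate pairs cover different times. For each replicate the log2 share minus the library median was averaged over its times and tested against 0 with limma (adjusted p under 0.05 and beyond 0.5). *Xbp1*, *Herpud1* and *Dnajb9* were above the median gene in all 3 fractions. *Dnajb9* was highest, at 1.65 (SE 0.14, adjusted p = 5.12e-05) in the nucleus, 2.67 (SE 0.26, adjusted p = 9.65e-05) in the cytosol and 2.32 (SE 0.17, adjusted p = 1.53e-05) in the membrane fraction, at rank 309 of 13022, 108 of 12328 and 282 of 12753 genes. *Herpud1* was at 1.23 (SE 0.10), 2.44 (SE 0.24) and 1.35 (SE 0.27) in the same order. *Xbp1* was at 1.17 (SE 0.11), 1.67 (SE 0.20) and 1.21 (SE 0.11). Each of these 9 values was above 0 in 6 of 6 replicates. Single libraries could lie lower. In the membrane fraction of replicates 1 and 2, *Herpud1* was at -0.49 and 0.09 at 15 min and at -0.04 and -0.23 at 20 min. At 30 min it was at 1.17 and 1.54 there. Its membrane shares rested on as few as 6 T2C counts. In all, 25.1% of genes were called higher and 29.3% lower in the nucleus, 29.9% and 32.5% in the cytosol and 30.3% and 32.2% in the membrane fraction.

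The chaperones and folding enzymes split by fraction. In the cytosol 5 of the 7 were above the median gene, led by *Hspa5* at 2.33 (SE 0.35, adjusted p = 4.77e-04; rank 253 of 12328) and *Pdia4* at 1.5 (SE 0.27, adjusted p = 0.00117). *Calr* (1.20), *Pdia3* (1.10) and *Canx* (1.00) were called as well, while *Hsp90b1* (0.50, adjusted p = 0.126) and *Pdia6* (0.48, adjusted p = 0.0408) were not. These means pool labeling times. At 120 min in replicates 5 and 6, cytosolic values were 0.51 and 0.58 for *Hspa5* and 0.35 and 0.52 for *Pdia4*. *Calr* (-0.26 and -0.20) and *Pdia3* (-0.24 and -0.12) then lay below the median gene, and *Canx* (-0.12 and 0.12) around it. In the membrane fraction 0 of the 7 were higher and 5 were lower, from *Pdia4* at -0.63 (SE 0.14) to *Pdia6* at -1.15 (SE 0.13, adjusted p = 1.11e-04). *Hspa5* (0.28, SE 0.16) and *Calr* (0.04, adjusted p = 0.832) were not called there. In the nucleus *Pdia3* (-1.02, SE 0.16), *Pdia6* (-0.73, SE 0.14) and *Hsp90b1* (-0.64, SE 0.19) were lower and *Hspa5* was higher (0.58, SE 0.21, adjusted p = 0.0386), and *Calr* (-0.06), *Pdia4* (-0.24) and *Canx* (-0.31) were not called.

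*Pdia6* in the cytosol, just under the limit, was called at 0.51 to 0.57 under 6 alternatives, and *Hsp90b1* at 0.52 to 1.01 under 3. In libraries of 40 min and longer, the cytosolic calls of *Calr* (0.78) and *Pdia3* (0.86), the nuclear call of *Hsp90b1* (-0.44) and the membrane call of *Pdia4* (-0.47) were lost, and *Canx* was called lower in the nucleus (-0.62). The nuclear call of *Hspa5* was lost without any one of replicates 1 to 4 (0.43 to 0.54), with a lower minimum of 100 T counts (0.52) and in libraries of 40 min and longer (0.12). By library it lay at 1.67 and 0.90 at 15 min, at 0.88 and 0.76 at 30 min (replicates 1 and 2), at 1.5 and 1.39 at 20 min, at 0.17 and 0.27 at 60 min (replicates 3 and 4) and at -0.27 and -0.25 at 120 min (replicates 5 and 6). Within replicates 3 and 4, the nuclear share of *Hspa5* was thus above that of the median gene at 20 min and close to it at 60 min.

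**Figure D4:**
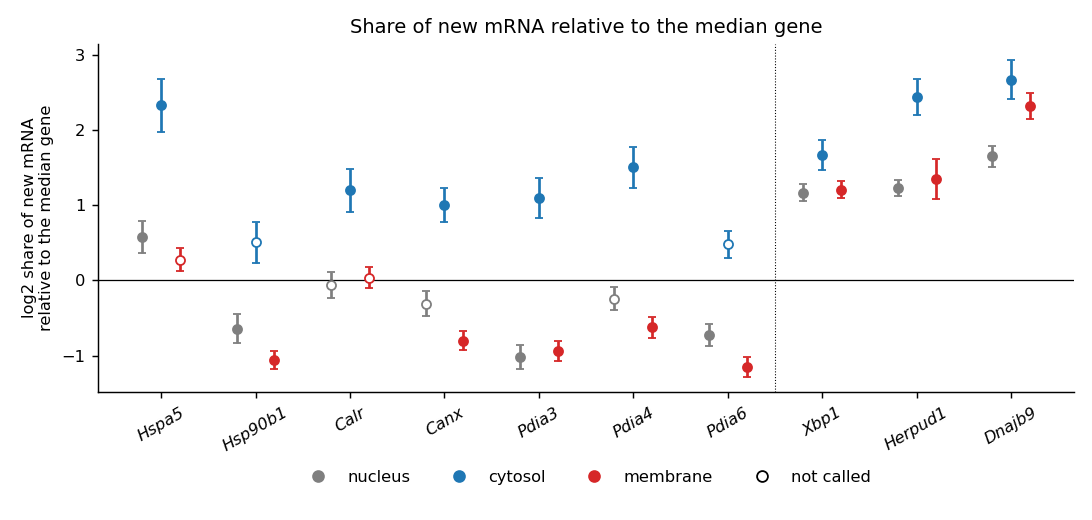
Log2 share of new mRNA relative to the median gene of the library (mean of 6 replicates, bars show the standard error) for the 10 genes in nucleus, cytosol and membrane fraction. Filled points were called with limma. Xbp1, Herpud1 and Dnajb9 lie above 0 in all 3 fractions. The 7 chaperones and folding enzymes lie above 0 in the cytosol, and 5 of them lie below 0 in the membrane fraction.

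Other lists gave a like range in the nucleus. Of 22 ER folding genes 2 were higher (*Txndc12* 0.59, *Hspa13* 0.56) and 9 lower, down to *Ppib* at -1.75 and *Sil1* at -1.38. Of 13 UPR signaling genes 8 were higher, with *Ppp1r15a* (1.96), which removes the phosphate set by PERK, and *Atf4* (1.86) at the top, and 1 was lower (*Atf6b* -0.95), while *Mbtps1*, a protease that activates ATF6, was not called at -0.43. Of 17 degradation genes 3 were higher, led by *Derl2* (0.94) and *Ube2g2* (0.89), and 4 lower, among them *Vcp* (-1.14) and *Erlec1* (-1.09). Of 16 cytosolic chaperones 3 were higher, with the heat shock genes *Hspa1a* (1.52) and *Dnajb1* (1.14) at the top, and 7 lower, with *Bag1* (-1.73) and *Stip1* (-1.08) at the bottom. *Hsp90ab1* was among these at -0.73, while *Hsp90aa1* at -0.73 and *Hspa8* at 0.04 were not called.

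Introns show new RNA before it is spliced. In the nucleus at 15 min the median gene had an intronic share of 0.144 and 0.128 in replicates 1 and 2. *Hspa5* had 0.795 and 0.709, from 200 and 156 T2C counts, and was followed by *Herpud1* (0.616 and 0.433), *Dnajb9* (0.536 and 0.495), *Pdia3* (0.454 and 0.397) and *Calr* (0.348 and 0.291). *Canx* (0.248 and 0.264), *Pdia6* (0.279 and 0.223), *Hsp90b1* (0.264 and 0.209) and *Xbp1* (0.190 and 0.184) were lower. *Pdia4* (0.129 and 0.120) was the only one close to the median gene. The model of the study delays the labeling of introns by gene length, and the shares here were not corrected for it. *Hspa5*, *Dnajb9* and *Calr* are short genes, but so is *Xbp1* (5.235 kb), and *Pdia3* is long (24.913 kb). The part of gene length in this order was not tested. At 20 min *Hspa5* had reached 0.948 and 1.11 in replicates 1 and 2, and at 40 min the 10 genes ranged from 0.936 to 1.69, against 0.731 and 0.707 for the median gene. In replicates 5 and 6, labeled at another dose, *Hspa5* was at 0.879 and 0.723 at 60 min and 0.752 and 0.749 at 120 min. *Herpud1* and *Dnajb9* rested on 27 to 35 and 22 to 23 T2C counts at 15 min, and *Dnajb9* ranged from 0.554 to 1.69 at 40 min and longer.

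In the nucleus the intronic share was above the exonic share of the same gene for all 9 members tested, as it was for 96.6% of 10380 genes (edgeR, median log2 ratio 1.89). *Dnajb9*, with fewer than 400 intronic T counts in at least 1 library, was not tested. The difference was largest for *Pdia3* at 3.74 (SE 0.15, rank 316 of 10380), then *Pdia6* at 3.19 (SE 0.14), *Hsp90b1* at 3.03 (SE 0.16), *Calr* at 2.69 (SE 0.12), *Canx* at 2.69 (SE 0.12), *Pdia4* at 2.37 (SE 0.13) and *Hspa5* at 2.21 (SE 0.15). *Herpud1* at 1.58 (SE 0.18) and *Xbp1* at 1.27 (SE 0.12) lay under the median gene. Each had a higher intronic share in 16 of 16 nuclear libraries. As an example, at 60 min in replicates 5 and 6 *Pdia3* had intronic shares of 1.06 and 0.942 and exonic shares of 0.0957 and 0.0720. The cytosolic *Hsp90ab1* was at 3.67 and *Hspa8* at 3.09.

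**Figure D5:**
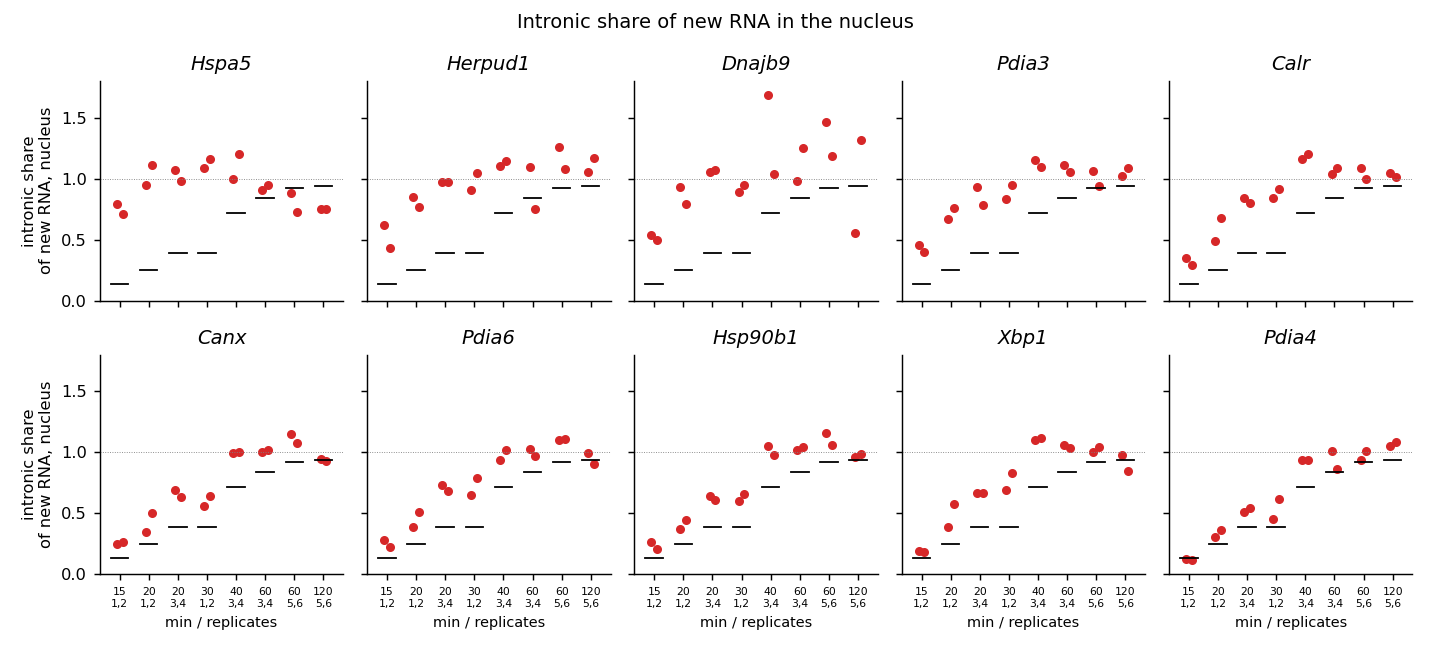
Intronic share of new RNA in the nucleus for each of the 10 genes, by labeling time (min) and pair of replicates, with the genes in the order of the mean share at 15 min. Red points are libraries, black bars the median gene (mean of both libraries), and the dotted line marks 1. Hspa5 is already at 0.709 and 0.795 at 15 min, and Pdia4 starts at the level of the median gene.

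In the 5 longer genes the exons of the upstream and the downstream part of the gene were compared in the 16 nuclear libraries. The upstream exons had the lower share in 15 of 16 libraries for *Canx*, *Pdia3* and *Pdia4*, in 16 of 16 for *Pdia6* and in 10 of 16 for *Hsp90b1*. For *Canx* the median share up to 20 min was 0.00713 upstream and 0.0596 downstream, and from 60 min on 0.175 and 0.188. The early and the late libraries come from different pairs in part. For *Pdia6* the medians were 0.0131 and 0.0369 up to 20 min and 0.112 and 0.149 from 60 min on. The parts differ in the number of T counts and in alternative exons, and this gradient was not tested against other genes.

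Whether levels changed with the time in 4sU was asked next. They were compared in whole cells and nuclei between 60 or 120 min and 20 min in replicates 3 and 4, and between 120 and 60 min in replicates 5 and 6. EdgeR's test here had no term for the replicate. In it, none of the 10 was called in any of these 6 comparisons (adjusted p under 0.05 and log2 ratio beyond 0.5). In nuclei of replicates 3 and 4, deviations of a replicate correlated between times at 0.78 (20 and 60 min) and 0.42 (20 and 120 min). In whole cells this was 0.10 and -0.07, and in replicates 5 and 6 it was 0.16 (nuclei) and 0.25 (whole cells). With the replicate as a block, *Dnajb9* was called in nuclei at 120 against 20 min (-0.78, adjusted p = 0.0225). Without the block, 0.113% of 16858 genes were called at 120 against 20 min in whole cells and 2.91% of 17810 in nuclei. In the other 4 comparisons 0 genes were called in all, with 123 to 3454 genes at an unadjusted p under 0.05. This count of 0 depended on the fit for nuclei at 60 against 20 min, where 1070 genes were called with the replicate as a block, 956 without the filter on low counts, 227 with DESeq2 and 1359 without replicate 3, which leaves 1 library in each arm. In the other 3 comparisons 42 to 80 genes were called without the filter. The chaperones and folding enzymes had log2 ratios from -0.06 (*Pdia4*) to 0.15 (*Pdia3*) in whole cells at 120 against 20 min, with SEs of 0.16 to 0.19.

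*Herpud1* had the largest value in whole cells. Its level was 32.0 and 28.8 CPM at 20 min, 24.7 and 22.8 CPM at 60 min and 16.8 and 14.6 CPM at 120 min in replicates 3 and 4, a log2 ratio of -0.89 at 120 min (SE 0.21, unadjusted p = 4.60e-04, adjusted p = 0.0910). Both 120 min values lay under all others of that pair. With DESeq2 (-0.86, adjusted p = 0.0153) and without the filter on low counts (-0.90, adjusted p = 0.00984) it was called. In replicates 5 and 6 it was 29.0 and 32.9 CPM at 60 min and 35.9 and 38.3 CPM at 120 min (log2 ratio 0.09, adjusted p = 0.997). The order of both whole-cell libraries of replicate 6 is in doubt from their shares, and without that replicate the log2 ratio of *Herpud1* was -0.05, with 1 library in each arm. *Dnajb9* was at 21.0 and 20.9 CPM at 20 min and at 14.9 and 9.80 CPM at 120 min in replicates 3 and 4 (log2 ratio -0.70, adjusted p = 0.336). In nuclei its log2 ratio at 120 against 20 min was -0.71 (adjusted p = 0.189), and it was called at -0.78 (adjusted p = 0.0225) with the replicate as a block and at -1.24 (adjusted p = 0.0301) without replicate 3, with 1 library left in each arm and the spread taken from the other groups. Both calls thus depended on the fit.

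Pairs of replicates differed in the level of most of these genes. In whole cells all 6 libraries of replicates 1 and 2 lay above all 8 libraries of replicates 3 and 4 for 9 of the 10 genes, against 19.3% of 13453 genes (no test). *Hspa5* ranged from 1690 to 2041 CPM in replicates 1 and 2, from 715 to 983 CPM in replicates 3 and 4 and from 1266 to 1550 CPM in replicates 5 and 6. The median of replicates 1 and 2 was 2.21-fold that of 3 and 4 for *Hspa5*, 2.57-fold for *Hsp90b1*, 2.32-fold for *Pdia6*, 2.20-fold for *Canx* and 1.77-fold for *Calr*, the least of the 7. *Dnajb9* was 2.35-fold and *Xbp1* 1.14-fold higher, *Herpud1* overlapped (1.11-fold), and the median gene was at 1.01-fold. The labels name no batch beyond the replicate number, and pair, labeling times and culture cannot be told apart.

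The genes most like *Hspa5* were sought by their distance over 6 values (log2 level ratios of membrane and nucleus to cytosol, and the log2 share relative to the median gene in nucleus, cytosol, membrane fraction and whole cells) among 11314 genes. They were *Slc2a1*, a glucose transporter (distance 0.724), *Sdc1*, a cell surface proteoglycan (0.906), and *Spp1*, a secreted matrix protein (1.03). For *Slc2a1* the membrane to cytosol ratio was 4.83 and the relative share in the cytosol 1.99, against 5.24 and 2.33 for *Hspa5*. For *Xbp1* they were *Vegfc*, a secreted growth factor (0.350), *1810055G02Rik* (0.383) and *Fut11*, a fucosyltransferase (0.387). Without the shares of whole cells, an alternative added after the libraries of replicate 6 had been seen, the same 3 genes were nearest to *Hspa5*, and *Ildr1* took the place of *Fut11* for *Xbp1*.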

How the data were processed

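The 10 genes, the lists of related genes and the tests were chosen with earlier results of these data known. Read counts per gene were deposited raw: the authors aligned paired reads to mm10 (GRCm38) with STAR 2.7.6 and counted reads in exons with HTSeq 0.11.1. Per gene the authors also deposited counts of T positions and T2C mutations in exons and introns, the conversion rate as a fraction, estimated with a mixture model, and the ratio of T2C over T counts divided by that rate. These ratios, computed again from the counts, differed from the deposited ones by at most 1.21e-13. Reads outside features (3.09 to 27.8% per library) stayed out of library sizes. 51633 of 51826 genes matched Gencode M21 (GRCm38), used for positions and lengths.

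Levels were tested on counts summed per replicate and fraction with edgeR 4.0.16 (TMM, filterByExpr, quasi-likelihood), shares on T2C counts with the T count times the conversion rate as offset (at least 400 T counts in every library), and relative shares with limma 3.58.1 (0.5 added to T2C counts), each with Benjamini-Hochberg adjustment over all genes in R 4.3.3. The fits were tested on simulated data, drawn for each library independently. Without a shared effect of the replicate, these data cannot show how the p-values behave when fractions or times share a culture. DESeq2 1.42.0, other scalings, filters, minimums, pseudocounts, times, a replicate block and leaving out each replicate were the alternatives. Named were the 10 genes, the 2 highest and 2 lowest of each list in the membrane to cytosol ratios and the nuclear relative share, and cytosolic relatives of the members.

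Fractions with the same replicate number come from the same culture, per the protocol. Deviations from the fraction mean correlated at 0.177 to 0.669 in 18 pairs with the same number (median 0.540) and at -0.538 to 0.610 in 90 pairs with different numbers (median -0.163). No 2 replicates agreed within sampling noise (chi-square per gene 4.57 to 275). Malat1, Neat1 and Meg3, nuclear RNAs used to check the fractions, had log2 ratios of nucleus over cytosol of 0.96 to 2.28, and 2 of the 3 were called higher. *Hspa5* (2.99), *Pdia3* (2.86), *Hsp90b1* (2.61) and *Pdia6* (2.55) lay above the highest of these, the other members below it. In the cytosol Malat1 ranged from 54.2 to 185 CPM, Neat1 from 9.34 to 274 and Meg3 from 10.2 to 230. Malat1 was called higher in the membrane fraction than in the cytosol (1.45). Nuclear RNA carried over into other fractions was not tested. P-values measure the spread between these cultures of 1 cell line. Those of shares between fractions, of introns against exons and of levels over labeling time took each library as a unit. Values of the same replicate counted as independent there. Levels between fractions were summed per replicate, but that test had no term for the replicate. Fractions of the same culture thus counted as independent in it as well.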

Additional observations from a re-analysis of the deposited data

Results flagged for a closer look

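The share of *Pdia6* relative to the median gene in the membrane fraction was -0.8127 on the log2 scale in replicate 4, against -1.335 to -1.15 in the other 5 replicates. This distance was 0.646 of the range of the 6, above the limit of 0.625. It was the only such value in 80 groups, and chance gives about 1 in 20.

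The log2 ratio of the share of *Dnajb9* in membrane fraction over nucleus was 0.1605 on average in replicates 5 and 6 and -1.21 in replicates 1 and 2, with all cultures of each pair on one side of 0. Its ratio of nucleus over cytosol was 0.3632 in replicates 3 and 4 and -0.211 in replicates 5 and 6, again with all cultures of a pair on one side. These differences between pairs were not tested, and the pairs differ in labeling time.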

How the results depend on the processing

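Of 969 values of single genes under an alternative, 904 kept direction and call, 16 lost and 28 gained a call, and 21 changed sign. All membrane to cytosol levels and all nuclear intron to exon ratios were among the 904. The changes of sign were in values that were not called. For *Dnajb9* the nucleus to cytosol share became 0.01141 with the replicate block, 0.01162 with limma and the block and 0.04103 from 40 min on, and the membrane to cytosol share became 0.1085 from 40 min on. For *Calr* the relative share became 0.01187 in the nucleus with each library on its own, and -0.04559 (minimum of 100 T counts) and -0.1786 (from 40 min on) in the membrane fraction. Leaving out 1 replicate gave -0.1578 to 0.1185 for the nucleus to cytosol share of *Hsp90b1* and -0.109 to 0.09071 for that of *Dnajb9*, and -0.1606 to 0.05779 (nucleus) and -0.03924 to 0.1182 (membrane fraction) for the relative share of *Calr*. For levels over time it gave -0.06329 to 0.005734 (whole cells) and -0.01255 to 0.03772 (nucleus) for *Xbp1* at 60 against 20 min, and in whole cells at 120 against 60 min -0.05435 to 0.2213 for *Herpud1* and -0.06379 to 0.4349 for *Dnajb9*. The number of the 10 genes called at 120 against 20 min, 0 as reported, was 1 in whole cells with DESeq2 and without the filter (*Herpud1*), and 1 in the nucleus without the filter and with the replicate block (*Dnajb9*). Leaving out replicate 3 or 4 gave 0 to 1 in the nucleus at 60 and at 120 against 20 min (*Dnajb9*, called without replicate 3), with 1 library in each arm that is assumed to vary like the other groups. Apart from this call of *Dnajb9* and the membrane to cytosol share of *Xbp1* with limma, the replicate block changed no call of a member. The cause of these changes was not tested.

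Scaling by library size alone moved the median gene of the membrane to cytosol level from -0.14 to -0.447 and of the nucleus to cytosol level from -0.01 to 0.352, and the share of higher among called genes from 96.9 to 80.7% and from 62.3 to 84.5%. Over all genes, 1725 membrane to cytosol shares were called, and 1070 with limma and the block. At 120 against 20 min 19 genes were called in whole cells, and 113 with DESeq2, 227 without the filter, 31 with the block and 0 without replicate 3 or 4. In the nucleus 518 were called, and 975 with DESeq2, 1242 without the filter, 1803 with the block and 290 without replicate 4. At 60 against 20 min in the nucleus 0 were called, and 227 with DESeq2, 956 without the filter and 1070 with the block. The rare cytosolic reads of *Pdia4*, *Herpud1* and *Dnajb9*, with as few as 8 T2C counts in a library, limit what their shares can show.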
